A study of Mus musculus with 8 samples.

Results

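The Ifitm genes encode small interferon-induced transmembrane proteins of the CD225 family. Their levels were read in anterior neural progenitor cells (AntNPC) made from mouse embryonic stem cells. The members were the table entries whose symbol was Ifitm1, Ifitm2, Ifitm3, Ifitm5, Ifitm6 or Ifitm7, which gave 6 of 46406 entries, and 4 of these 6 had a mean of at least 1 FPKM (fragments scaled by transcript length and by the library's mapped total) and were among the 14521 genes tested. The family was selected on Ifitm1, which was lower in all 4 null libraries than in the 4 WT libraries, so Ifitm1 against WT is described here and not tested.

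Poly(A) RNA of AntNPC lacking the poised enhancer PE Lhx5(-109) was sequenced in 2 libraries of clone 2 and 2 libraries of clone 1, beside 4 libraries of WT (E14) AntNPC. The deletion was made in E14 cells with CRISPR-Cas9 and a pair of guide RNAs, and each null line grew from a clone. The enhancer is named for Lhx5, a LIM homeobox gene of the forebrain. All groups were differentiated for 5 days in N2B27 medium without serum, which held bFgf at 10 ng/ml until day 3 and Xav939, a WNT inhibitor, at 5 µM from day 2. WT cells carry no clone label, so loss of the enhancer and derivation through a clone cannot be told apart. The submitters call the libraries of a group biological replicates.

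IFITM proteins sit in the plasma membrane and endosomal membranes, where they hinder the fusion of enveloped viruses with the cell. Several members are induced by interferon through response elements near their start sites, and some are also expressed without interferon in stem and progenitor cells, which lack much of the interferon response. In the mouse, Ifitm1 and Ifitm3, also called fragilis genes, are known from the early embryo and the germ line, and Ifitm5 is known from bone-forming osteoblasts.

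On GRCm38, 5 members lie in a cluster on chromosome 7, in the order Ifitm5 (chr7:140948958-140950291, minus strand), Ifitm2 (chr7:140954837-140955987, minus strand), Ifitm1 (chr7:140967221-140969825, plus strand), Ifitm3 (chr7:141009586-141010770, minus strand) and Ifitm6 (chr7:141015699-141017924, minus strand). Ifitm7 lies apart, at chr16:13981699-13986888 on the minus strand. The start regions of the 3 best expressed cluster genes are shown because the members are known to differ in how interferon acts on them. Each is a window of 250 bases before to 50 bases after a RefSeq start (GRCm38.p6), printed 5′ to 3′ on the gene's strand, at chr7:140967826-140968125 for Ifitm1, chr7:140955912-140956211 for Ifitm2 and chr7:141010695-141010994 for Ifitm3. Capitals mark the core of the interferon-stimulated response element (ISRE), GAAANNGAAA.
Ifitm1: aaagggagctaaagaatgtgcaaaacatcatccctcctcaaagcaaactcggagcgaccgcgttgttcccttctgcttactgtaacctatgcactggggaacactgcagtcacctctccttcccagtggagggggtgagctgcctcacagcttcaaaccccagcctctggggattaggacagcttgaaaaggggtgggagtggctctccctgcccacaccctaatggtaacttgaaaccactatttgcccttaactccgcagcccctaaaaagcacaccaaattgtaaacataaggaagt
Ifitm2: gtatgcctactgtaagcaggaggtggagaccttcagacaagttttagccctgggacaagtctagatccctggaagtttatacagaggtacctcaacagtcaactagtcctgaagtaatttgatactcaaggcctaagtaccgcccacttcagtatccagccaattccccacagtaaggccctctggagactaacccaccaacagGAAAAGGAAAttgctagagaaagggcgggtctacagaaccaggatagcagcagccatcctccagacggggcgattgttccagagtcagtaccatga
Ifitm3: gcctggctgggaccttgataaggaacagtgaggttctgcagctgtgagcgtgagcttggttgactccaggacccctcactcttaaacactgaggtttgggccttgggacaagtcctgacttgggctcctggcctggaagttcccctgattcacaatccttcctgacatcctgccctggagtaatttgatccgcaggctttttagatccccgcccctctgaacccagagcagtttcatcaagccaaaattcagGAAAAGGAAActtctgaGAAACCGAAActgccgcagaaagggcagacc

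The ISRE core, searched on both strands, was in the Ifitm3 window at 2 places and in the Ifitm2 window at 1 place. In Ifitm3 the matches lay 3 to 12 and 20 to 29 bases after the start site, counted with the start as base 1, and in Ifitm2 at -46 to -37. The windows of Ifitm1, Ifitm5, Ifitm6 and Ifitm7 held none of these letters, as compared with 3.44% of all 32851 RefSeq windows that held the core. The core of the gamma-activated site, TTCNNNGAA, was present in the windows of Ifitm3, where it overlaps the second ISRE match, and Ifitm6, and in 8.3% of all windows. Ifitm1 was without a GC box (GGGCGG), which each of the other 5 members held and which 35.66% of all windows held. Ifitm1 has 3 annotated transcripts with different starts, and its window belongs to a single one of them. A match of letters is not a bound site.

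Coding sequences of the members were most alike between Ifitm2 and Ifitm3, at 76.3% identity, while Ifitm1 shared 64.0% with Ifitm3 and 60.2% with Ifitm2. Ifitm5 was the most distant, at 49.6% to 52.9% with the other 5 members. Reads can be shared between such genes, which touches their counting. Of the 50-base stretches of Ifitm2, 48.51% also occur in another annotated gene, and 20.79% occur in a gene that has its own entry in the table. The corresponding shares with any other gene were 5.02% for Ifitm1, 10.02% for Ifitm3, 25.28% for Ifitm5, 0% for Ifitm6 and 8.85% for Ifitm7. Gm45717, an annotated gene on the same strand that overlaps Ifitm2 and Ifitm5, has no entry of its own in the table. It held most of the shared stretches of Ifitm2 and all of those of Ifitm5. Of the Ifitm5 stretches, 0% occur in a gene that has its own entry. How the authors counted reads where Gm45717 overlaps is not known, and the levels of Ifitm2 and Ifitm5 are uncertain to that extent.

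The family was dominated by Ifitm2. In every library the order of the levels was Ifitm2, Ifitm1, Ifitm3, Ifitm5, Ifitm7 and Ifitm6, and only the ranges of Ifitm5 and Ifitm7 overlapped between libraries. Ifitm2 made up 88.56% to 93.34% of the summed FPKM of the family and exceeded 96.71% to 98.14% of the tested genes. Ifitm1 made up 4.36% to 8.80% of the family, and exceeded 49.56% to 70.13% of the tested genes. Ifitm3 exceeded 23.57% to 31.4% of them, and Ifitm5 exceeded 3.08% to 12.4%.

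The level of Lhx5 followed the labels, at 1.90 and 1.26 FPKM in clone 2, at 1.24 and 0.854 FPKM in clone 1, and at 15.0 to 17.5 FPKM in WT. All 12 neural progenitor markers examined had a mean of at least 1 FPKM, with sums of 647 to 673 FPKM in clone 2, 609 to 674 in clone 1 and 667 to 717 in WT. Endothelial markers summed to at most 1.68 FPKM in any library. The sum of all entries was 518491 to 528726 FPKM per library, and the depth of each library is unknown, as the authors' mean reads are given per genotype only and summed to 26864352 in null and 26693189 in WT. Clone 1 replicate 2 stood apart in RNAs that carry no poly(A) tail, with Rpph1 at 371 FPKM against 3.02 to 22.8 FPKM in the other libraries.

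Ifitm1 (ENSMUSG00000025491), known in the mouse from the primitive streak and mesoderm, was read at 13.1 and 13.5 FPKM in clone 2, at 12.1 and 11.3 FPKM in clone 1, and at 22.3, 25.6, 21.8 and 23.4 FPKM in WT. The groups did not overlap: every null library was below every WT library. Over 4 libraries each, the mean was 12.5 ± 0.996 FPKM in null and 23.3 ± 1.70 FPKM in WT (SD). The null level was 0.537 of the WT level, or 0.571 in clone 2 and 0.502 in clone 1. On the log2(FPKM + 1) scale the difference was -0.76 in clone 2, -0.93 in clone 1 and -0.85 over both. With each library left out in turn it stayed between -0.79 and -0.72 in clone 2 and between -0.98 and -0.89 in clone 1. These values chose the family and carry no test; 3.22% of all tested genes were lower in every null library than in every WT library. The authors' deposited table gave mean reads of 181 in null and 336 in WT and a fold of 0.540. The spread of FPKM between libraries was 7.98% of the mean in null and 7.30% in WT, beside counting errors of 7.43% and 5.46% that those mean reads imply.

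Between the clones, a contrast that did not enter the choice, Ifitm1 was not called. Clone 2 minus clone 1 was 0.17 on the log2 scale (95% interval -0.01 to 0.36, limma adjusted p = 0.126). The interval allows a clone difference of up to 0.36, under the decrease of either clone from WT. In bulk RNA, fewer cells expressing the gene and less RNA per cell cannot be told apart.

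**Figure D1:**
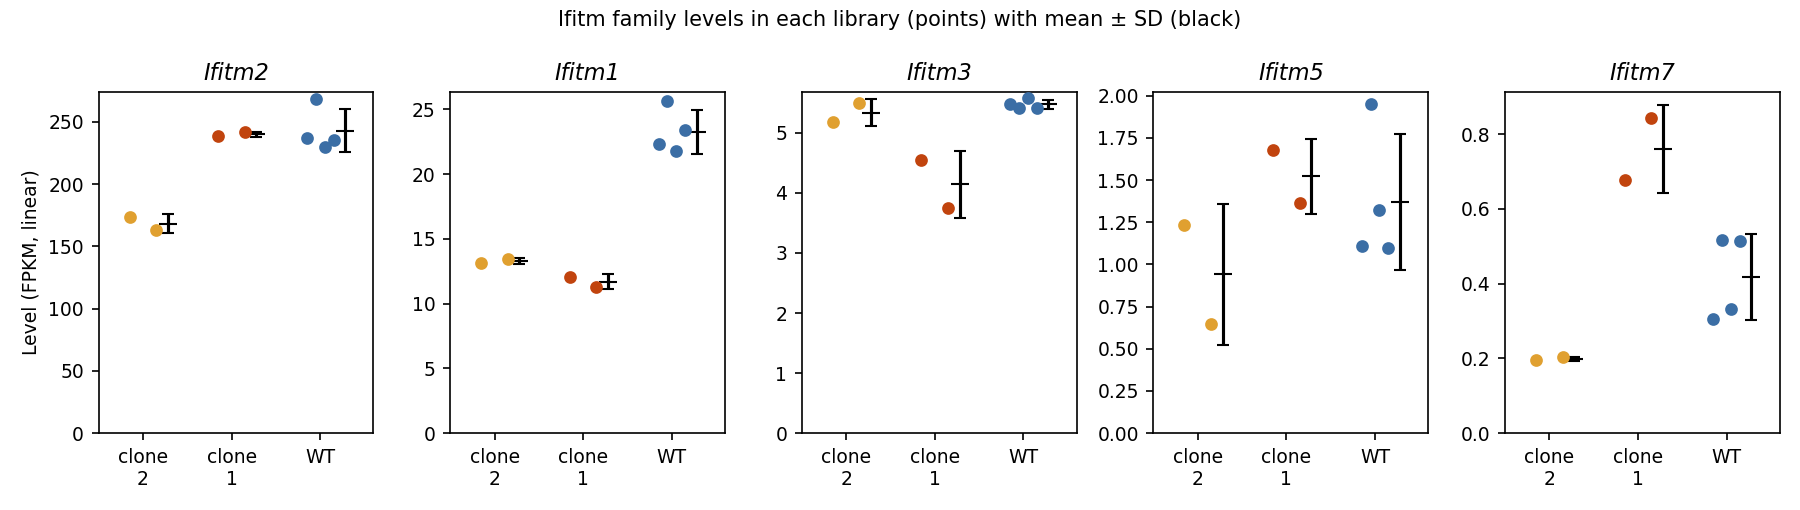
FPKM on a linear axis in each library of clone 2, clone 1 and WT (points) with the group's mean ± SD (black) for 5 members, each with an axis of its own from 0. Ifitm1 is at most 13.5 FPKM in the clones and at least 21.8 FPKM in WT, while Ifitm2 is low in clone 2 and not in clone 1.

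Ifitm2 (ENSMUSG00000060591), a close relative of Ifitm3 that restricts viruses in endosomes, was low in clone 2 and not in clone 1. It was read at 173 and 163 FPKM in clone 2, at 239 and 242 FPKM in clone 1, and at 237, 269, 230 and 236 FPKM in WT. Both clone 2 libraries lay below the other 6 libraries, and the clone 1 libraries lay within the WT range. The mean was 168 ± 7.31 FPKM in clone 2 and 240 ± 2.11 FPKM in clone 1 (SD, n = 2 libraries each), and 243 ± 17.4 FPKM in WT (SD, n = 4 libraries). Clone 2 was thus at 0.693 of WT and clone 1 at 0.988 of WT.

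Clone 2 minus clone 1 was -0.51 for Ifitm2 on the log2 scale (95% interval -0.67 to -0.35, limma adjusted p = 0.00104). Clone 2 minus WT was -0.52 (95% interval -0.66 to -0.39, limma adjusted p = 0.00364). Ifitm2 remained past the threshold in both comparisons under all 12 alternatives run for each. Clone 1 minus WT was -0.01 (95% interval -0.15 to 0.12, limma adjusted p = 0.895), an interval that does not reach the decrease seen in clone 2. Over both clones against WT, Ifitm2 was at -0.27 (95% interval -0.59 to 0.05, limma adjusted p = 0.9999), and its null libraries overlapped the WT range. With the mean of the clones in the fit of 3 groups, the same difference had a limma adjusted p of 0.0544 and was not called. The authors' deposited table gave a fold of 0.872 of null over WT from mean reads of 3089 and 3545.

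Ifitm3 (ENSMUSG00000025492), the member best known for restricting influenza virus, gave the opposite order of the clones at a much lower level. It was read at 5.18 and 5.49 FPKM in clone 2, at 4.54 and 3.75 FPKM in clone 1, and at 5.48, 5.41, 5.58 and 5.41 FPKM in WT. Both clone 1 libraries lay below the other 6, and clone 2 overlapped WT. Clone 2 minus clone 1 was 0.30 on the log2 scale (95% interval 0.10 to 0.51, limma adjusted p = 0.0272). This call was lost without clone 1 replicate 2, at 0.19 (limma adjusted p = 0.0998), without clone 2 replicate 1 (limma adjusted p = 0.0565) and without clone 2 replicate 2 (limma adjusted p = 0.137).

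Clone 1 minus WT was -0.34 for Ifitm3 (limma adjusted p = 0.0252). Leaving out clone 1 replicate 2 ended the call and moved the value to -0.22 (limma adjusted p = 0.118), and leaving out WT replicate 1, 3 or 4 ended it at adjusted p from 0.063 to 0.0688. Clone 2 minus WT was -0.03 (95% interval -0.21 to 0.15, limma adjusted p = 0.829). The 4 WT libraries of Ifitm3 varied by 1.46% of their mean, less than the 10.7% counting error implied by the authors' 87.9 mean reads.

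Ifitm5 (ENSMUSG00000025489) was low in all groups, at 1.24 and 0.647 FPKM in clone 2, 1.68 and 1.37 FPKM in clone 1, and 1.11, 1.95, 1.33 and 1.10 FPKM in WT. The groups overlapped. Clone 2 minus clone 1 was -0.39 (95% interval -0.84 to 0.06, limma adjusted p = 0.151), clone 2 minus WT was -0.29 (limma adjusted p = 0.292) and clone 1 minus WT was 0.10 (limma adjusted p = 0.725). At about 30.6 mean reads in null and 32.6 in WT in the authors' deposited table, the interval still allows a decrease as large as that of Ifitm2.

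Ifitm6 (ENSMUSG00000059108) was listed at 0 FPKM in all 8 libraries, with 0.28 mean reads in null and 0 in WT in the authors' deposited table. Ifitm7 (ENSMUSG00000065968) was at 0.195 and 0.203 FPKM in clone 2, 0.677 and 0.844 FPKM in clone 1, and 0.305, 0.518, 0.333 and 0.516 FPKM in WT, and did not pass the filter on low values. Its 3 groups did not overlap, and how many of all entries did the same was not counted. With no filter, clone 2 minus clone 1 was -0.55 (limma adjusted p = 0.00966), clone 2 minus WT was -0.24 (limma adjusted p = 0.18) and clone 1 minus WT was 0.31 (limma adjusted p = 0.0858). With the filter, 39.9% of all tested genes were called between the clones. The start of Ifitm7 overlaps 2900011O08Rik on the other strand, which had 3.07 and 2.22 FPKM in clone 2, 8.22 and 7.05 FPKM in clone 1, and 4.52 to 5.18 FPKM in WT. Of the Ifitm7 stretches compared above, 8.85% also occur in 2900011O08Rik. No source used here says if counting went by strand, so reads from this shared part cannot be told apart between the 2 genes.

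Counted over the family, 2 of 4 tested members (Ifitm2 and Ifitm3) differed between the clones, where 39.9% of all tested genes did. Against WT, 1 of the 3 members other than Ifitm1 was called in clone 2 (Ifitm2, lower), where 14% of tested genes were called and 6.96% were lower. In clone 1 it was likewise 1 of 3 (Ifitm3, lower), where 15.6% were called and 11.4% were lower. With the libraries rescaled, the calls of clone 1 over all genes were 882 higher and 1060 lower, against 604 higher and 1662 lower as deposited. Over both clones, 0 of these 3 members were called by limma and 0 had an unadjusted p under 0.05, where 0.0551% of tested genes were called, or 8 genes, and 688 had an unadjusted p under 0.05. No member other than Ifitm1 was lower in all 4 null libraries than in every WT library.

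**Figure D2:**
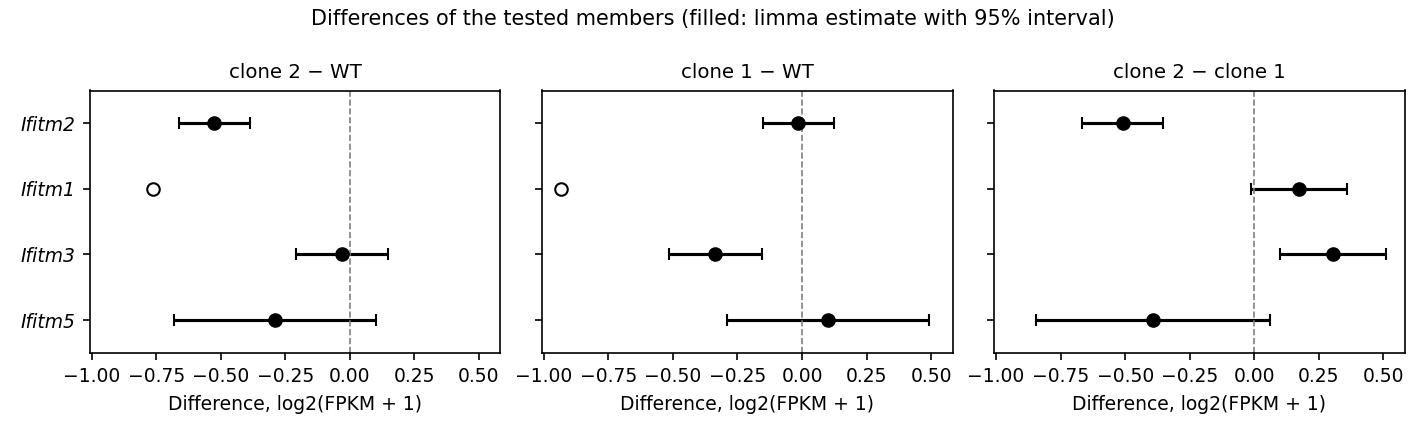
Differences of the 4 tested members on the log2(FPKM + 1) scale for clone 2 minus WT, clone 1 minus WT and clone 2 minus clone 1, as limma estimates with 95% intervals (filled), with 0 dashed. The open points of Ifitm1 against WT carry no interval because they chose the family, and the Ifitm2 interval is below 0 in clone 2 and spans 0 in clone 1.

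The ratio of Ifitm1 to Ifitm2 within a library separated the 3 groups. Ifitm1 chose the family, so a lower ratio in the clones than in WT follows in part from that choice and is no separate result. It was 0.0757 to 0.0825 in clone 2, 0.0467 to 0.0507 in clone 1 and 0.0941 to 0.0993 in WT. The lower ratio in clone 1 came with Ifitm2 at the WT level, and that in clone 2 with both genes low. The summed level of all 6 members was 183 and 193 FPKM in clone 2, 258 and 259 FPKM in clone 1, and 259 to 302 FPKM in WT. Without Ifitm2 the sum was 19.7 and 19.8 FPKM in clone 2, 17.2 and 19.0 FPKM in clone 1 and 29.0 to 33.5 FPKM in WT. Ifitm1 was the highest gene in that sum, so its difference from WT mostly restates the choice. Over the 8 libraries, Pearson's r of the log2 levels was 0.485 between Ifitm1 and Ifitm2, 0.697 between Ifitm1 and Ifitm3 and -0.227 between Ifitm2 and Ifitm3, a description over libraries that share 3 lines.

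Over both clones against WT, no gene around the cluster was called. Of 29 entries that start within 250 kb of the Ifitm1 start and are no members, 15 were tested. Limma called 0 of these 15, where 0.0551% of all tested genes were called. An unadjusted p under 0.05 was found for 2 of the 15, beside 688 of all 14521 tested genes. The differences ran from -0.16 for Athl1 to 0.40 for Urah, with a median of 0.00 beside -0.02 over all tested genes. Athl1, a glycosidase gene 25.8 kb from the Ifitm1 start, was the nearest tested gene outside the family, at 7.83 and 7.68 FPKM in clone 2, 7.93 and 7.38 FPKM in clone 1, and 8.50, 8.57, 9.28 and 8.59 FPKM in WT. Like Ifitm1, it was lower in every null library than in every WT library, as were 3.22% of all tested genes. Its difference was -0.16 (limma unadjusted p = 0.0173, limma adjusted p = 0.949). Hras, the other gene with an unadjusted p under 0.05, was higher in every null library than in every WT library. It differed by 0.13 (limma unadjusted p = 0.0236, limma adjusted p = 0.997).

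In clone 2 against WT, 1 of the 15 was called, where 14% of all tested genes were: Hras, a small GTPase, was higher by 0.18 (limma adjusted p = 0.0464), a call lost in 8 of 12 alternatives. In clone 1 against WT, 2 of the 15 were called, where 15.6% of all tested genes were. Urah, an enzyme of urate breakdown, was higher by 1.15 (limma adjusted p = 0.0109), with means of 4.23 FPKM in clone 1 and 1.41 FPKM in WT. B4galnt4, a glycosyltransferase gene, was at -0.26 in clone 1, with means of 20.8 FPKM in clone 1 and 25.1 FPKM in WT (limma adjusted p = 0.0175). Without clone 1 replicate 2, the adjusted p was 0.0836 for Urah and 0.094 for B4galnt4. Between the clones, 7 of 15 were called, of which 5 were higher in clone 2 (Psmd13, Gm15542, B4galnt4, Ptdss2 and Lrrc56) and 2 lower (Urah and Lmntd2), where 39.9% of all tested genes were called. Without clone 2 replicate 2 the count fell to 2 (Urah and B4galnt4), and without clone 1 replicate 2 it fell to 4, with Psmd13, Ptdss2 and Lmntd2 no longer called. The other tested genes of the window, Zfp941, Bet1l, Ric8, Sirt3, Rnh1 and Rassf7, were not called in any of the 4 comparisons.

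**Figure D3:**
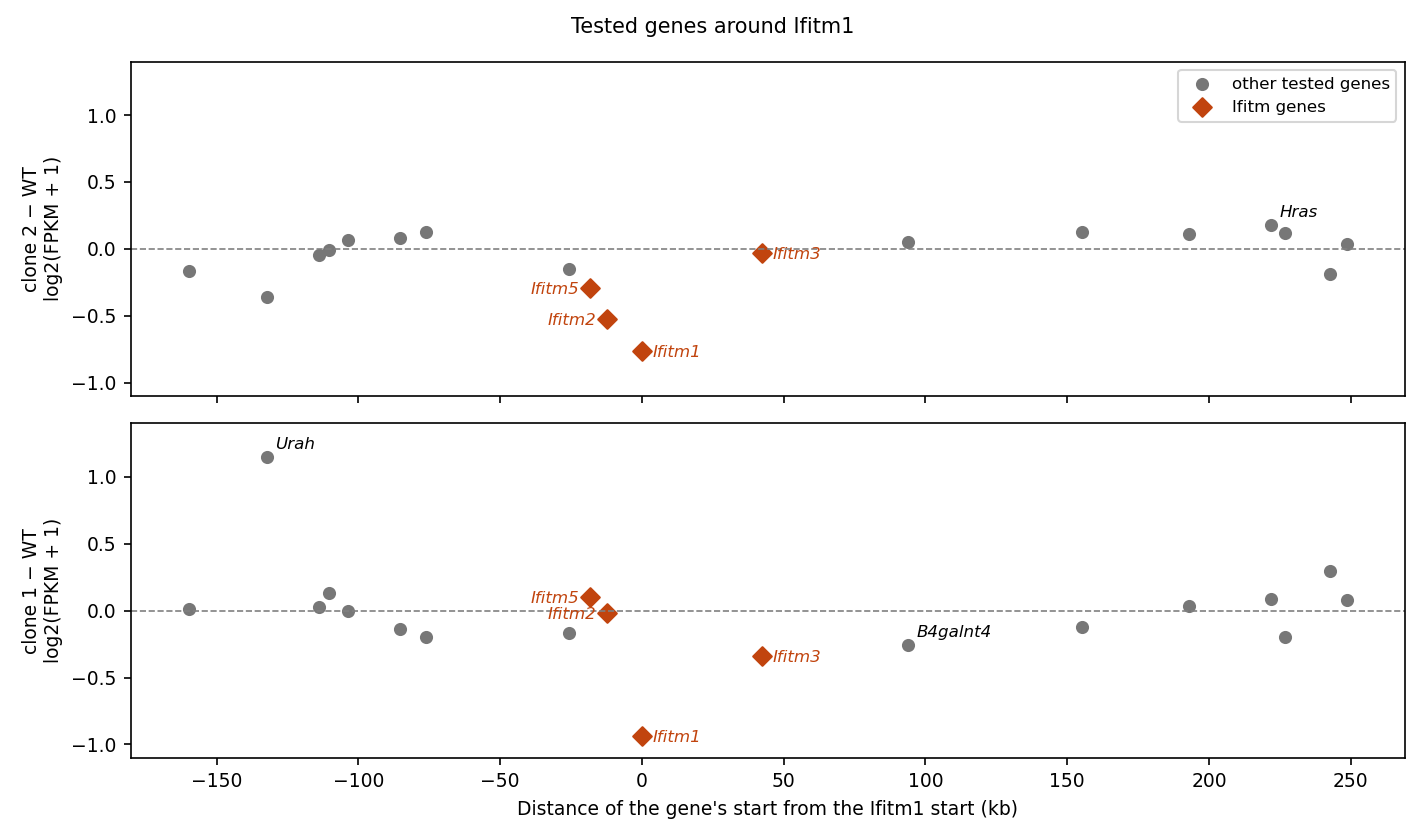
Difference from WT on the log2(FPKM + 1) scale of each tested gene within 250 kb of the Ifitm1 start, in clone 2 (top) and clone 1 (bottom), by distance in kb; diamonds are Ifitm genes, and other genes are named where they passed the threshold. Ifitm1 is the lowest point in both panels, but its values against WT chose the family, so its place is no test. Ifitm2 lies at -0.52 in clone 2 and -0.01 in clone 1, and Urah at 1.15 in clone 1.

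Interferon-stimulated genes, the group Ifitm2 and Ifitm3 belong to, were mostly low. Of 40 such genes in the table, 24 had a mean under 1 FPKM, among them Isg15 (0.0853 FPKM over the 8 libraries), a ubiquitin-like protein, and Irf7 (0.324 FPKM), a transcription factor of the response. Ifit1, which binds foreign RNA, was listed at 0 in every library. Over both clones against WT, limma called 0 of the 16 tested, where 0.0551% of all tested genes were called. An unadjusted p under 0.05 was found for 0 of the 16, beside 688 of all 14521 tested genes. The median difference was -0.09 beside -0.02 over all tested genes.

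Between the clones, 7 of the 16 tested interferon-stimulated genes were called, with 5 lower in clone 2 (Bst2, Tap1, Trim25, Stat2 and Psmb9) and 2 higher (Psmb10 and Dtx3l), where 39.9% of all tested genes were called. The median difference was -0.04 beside 0.05 over all tested genes. The count was 4 without clone 2 replicate 2 and 9 with no filter on low values. Bst2, or tetherin, which holds budding virus at the cell surface, was at 22.3 and 14.8 FPKM in clone 2, 70.5 and 61.5 FPKM in clone 1, and 29.0 to 44.7 FPKM in WT. Clone 2 minus clone 1 was -1.80 for Bst2 (limma adjusted p = 0.00316). Tap1, a peptide transporter of antigen presentation, was at 5.39 and 4.13 FPKM in clone 2, 15.5 and 14.7 FPKM in clone 1, and 6.93 to 9.76 FPKM in WT, a clone difference of -1.49 (limma adjusted p = 0.00038). Like Ifitm2, Bst2 and Tap1 were lower in clone 2 than in any WT library, but unlike Ifitm2 they were above every WT library in clone 1.

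Stat2, a transcription factor of the interferon response, was at 11.0 and 9.10 FPKM in clone 2, 18.1 and 17.3 FPKM in clone 1, and 13.96 to 17.4 FPKM in WT, and differed between the clones by -0.76 (limma adjusted p = 0.00125). B2m, the light chain of class I molecules and the highest of the list, averaged 44.2 FPKM in clone 2, 49.1 FPKM in clone 1 and 49.4 FPKM in WT and was called in none of the 4 comparisons. Against WT, 5 of the 16 were lower in clone 2 (Bst2, Stat2, Tap1, Trim25 and Psmb9), where 6.96% of all tested genes were lower. In clone 1, 3 were higher (Bst2, Tap1 and Trim25) and 0 lower. Of all 14521 tested genes, 604 were higher in clone 1 and 1662 lower, or 15.6% in either direction. None of the 5 was called without clone 2 replicate 2, where the adjusted p was 0.301 for Bst2, 0.124 for Stat2, 0.19 for Tap1, 0.244 for Trim25 and 0.289 for Psmb9. None of the 3 was called without clone 1 replicate 2, where it was 0.132 for Bst2, 0.0544 for Tap1 and 0.0824 for Trim25.

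**Figure D4:**
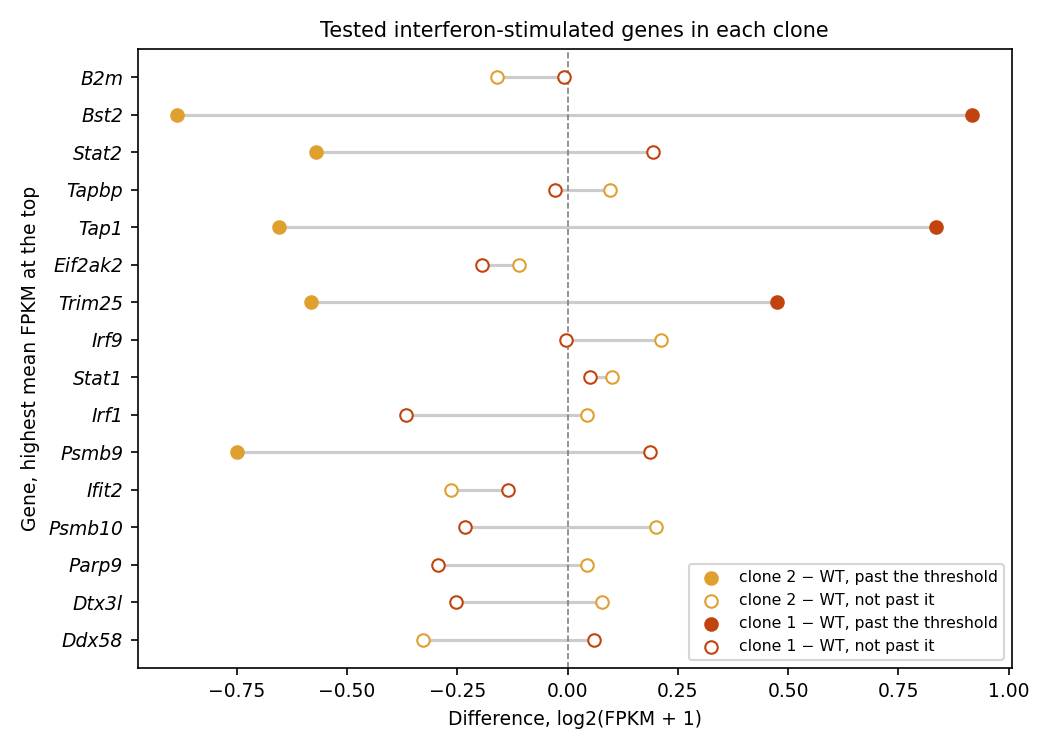
Difference from WT on the log2(FPKM + 1) scale of the 16 tested interferon-stimulated genes in clone 2 and clone 1 (filled where past the adjusted p of 0.05), ordered by mean FPKM with the highest at the top. Bst2, Tap1 and Trim25 are left of 0 in clone 2 and right of 0 in clone 1.

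Of 13 genes of the interferon receptors and JAK-STAT signalling, 12 were tested, and 8 differed between the clones, with 6 higher in clone 2 (Ptpn2, Ifnar1, Il6st, Jak2, Socs3 and Lifr) and 2 lower (Tyk2 and Stat3), where 39.9% of all tested genes differed. The count fell to 3 without clone 2 replicate 2, and to 5 without clone 1 replicate 1 or clone 2 replicate 1. Ifnar1, a chain of the type I interferon receptor, averaged 24.0 FPKM in clone 2, 20.1 FPKM in clone 1 and 21.9 FPKM in WT, a clone difference of 0.25 (limma adjusted p = 0.0217). It was 0.17 without clone 1 replicate 2 (limma adjusted p = 0.0884) and 0.19 without clone 2 replicate 2 (limma adjusted p = 0.146), which ended the call. Jak2, a receptor kinase, averaged 5.81 FPKM in clone 2, 3.42 FPKM in clone 1 and 4.90 FPKM in WT, a clone difference of 0.62 (limma adjusted p = 0.00112). Over both clones against WT, limma called 0 of the 12, where 0.0551% of all tested genes were called. An unadjusted p under 0.05 was found for 0 of the 12, beside 688 of all 14521 tested genes.

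Of 9 genes whose proteins are known to act on or bind IFITM proteins, 4 differed between the clones, where 39.9% of all tested genes did. The count was 8 without clone 1 replicate 1 and 3 without clone 1 replicate 2 or clone 2 replicate 2. Zmpste24, a membrane protease that works with IFITM proteins against viruses, averaged 15.3 FPKM in clone 2, 11.5 FPKM in clone 1 and 12.5 FPKM in WT, a clone difference of 0.39 (limma adjusted p = 0.00494). Vcp, an ATPase reported to bind ubiquitinated IFITM3, was also higher in clone 2, by 0.21 (limma adjusted p = 0.00446). The tetraspanins Cd81 and Cd9, membrane proteins reported in complexes with IFITM proteins, were lower in clone 2, at -0.37 (limma adjusted p = 0.00356) and -0.48 (limma adjusted p = 0.0105). The Cd9 call was lost without clone 1 replicate 2 (limma adjusted p = 0.0623) and without clone 2 replicate 2 (limma adjusted p = 0.0781). Nedd4, the ubiquitin ligase of IFITM3, averaged 482 FPKM in clone 2, 470 FPKM in clone 1 and 496 FPKM in WT and was called in no comparison. Against WT over both clones, limma called 0 of the 9, where 0.0551% of all tested genes were called. An unadjusted p under 0.05 was found for 0 of the 9, beside 688 of all 14521 tested genes. Of 8 other CD225 genes, 2 were tested, of which 1 was above WT and 1 below over both clones. The lower one, Prrt2, averaged 2.06 FPKM in clone 2, 1.54 FPKM in clone 1 and 3.69 FPKM in WT. Prrt2 was lower in every null library than in every WT library, as were 3.22% of all tested genes. Over both clones the difference was -0.73 (limma adjusted p = 0.58). Clone 1 minus WT was -0.87 (limma adjusted p = 0.0281), a call lost without clone 1 replicate 1 (limma adjusted p = 0.115), clone 1 replicate 2 (0.0718) or WT replicate 3 (0.062) and with no filter (0.062). Clone 2 minus WT was -0.59 (limma adjusted p = 0.0926).

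Markers of the cell state also differed between the clones, and their part in the clone difference of Ifitm2 was not tested. Of 10 pluripotency genes, 5 were tested and all 5 were lower in clone 2 than in clone 1. Of all 14521 tested genes, 39.9% differed in either direction and 2176 were lower in clone 2. The 10 pluripotency genes summed to 20.1 to 26.3 FPKM in clone 2, 72.8 to 79.5 FPKM in clone 1 and 34.2 to 51.5 FPKM in WT. Pou5f1, the core pluripotency factor, differed by -1.93 (limma adjusted p = 0.00203). Fibroblast and mesenchymal markers summed to 14.9 to 18.5 FPKM in clone 2, 25.0 to 28.9 FPKM in clone 1 and 22.6 to 26.6 FPKM in WT, with Lum listed at 0 in every library. Blood and immune markers summed to 3.29 to 3.46 FPKM in clone 2, 4.79 to 6.65 FPKM in clone 1 and 2.49 to 4.32 FPKM in WT, with Ptprc, which marks all white blood cells, listed at 0 in every library. Of the neural progenitor markers, 6 of 12 were higher in clone 2 than in clone 1 and 3 were lower (Otx2, Pax6 and Six3).

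Germ cell and mesoderm genes, which Ifitm1 and Ifitm3 are known to accompany in the mouse embryo, were mostly low. Of 10 germ cell genes, 7 had a mean under 1 FPKM. The other 3 differed between the clones, where 39.9% of all tested genes did, and not in 1 direction. Kit and Alpl were higher in clone 2 than in clone 1, by 0.42 and 0.41 (limma adjusted p = 0.00445 and 0.00283), and Dnd1 was lower, at -1.01 (limma adjusted p = 0.00116). Of 11 primitive streak and mesoderm genes, 10 had a mean under 1 FPKM. Twist1, the only gene of that list that was tested, averaged 3.61 FPKM in clone 2, 7.01 FPKM in clone 1 and 4.46 FPKM in WT.

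The genes whose log2 levels were most like those of Ifitm1 over the 8 libraries were Lhx5 (Pearson's r of 0.986), Tnfaip8 (0.977), Sgce (0.973), Oaz2 (0.966) and Idh2 (0.960). These are the 5 highest of all tested genes with a symbol, each averaged lower in null than in WT, and the 8 libraries share 3 lines. Ifitm1 was chosen for being lower in null, so this ranking favours such genes and is no separate result. Sgce, a sarcoglycan gene, averaged 13.1 FPKM in clone 2, 13.6 FPKM in clone 1 and 19.4 FPKM in WT. In deviations from the 3 group means, the 5 most like Ifitm1 were Chek2 (0.997), Hilpda (0.993), Tomm34 (0.992), Stmn3 (0.991) and Vasp (0.990). None of these was among the 5 by level. They too are the highest of all tested genes with a symbol, over 8 libraries, and no r was tested.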

How the data were processed

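Per the file headers, the authors deposited FPKM for each of the 8 libraries, and per genotype the mean read count (a signal whose scaling is not stated), the fold (a ratio, null over WT) and a p-value, which was not used here. The submitters' processing notes list mm10 and GRCm38 as builds, and as tools TopHat2, Cufflinks, DESeq2, SAMtools and FastQC, with no roles or versions. Clone columns are numbered within a clone and were assigned to the clone, not to a sample title.

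FPKM are not counts, so limma 3.58.1 (R 4.3.3, statmod 1.5.0) with trend and robust moderation was run on log2(FPKM + 1) of genes with a mean of at least 1 FPKM, with Benjamini-Hochberg adjustment over all 14521 genes and a threshold of 0.05; fold changes on this scale understate those of low genes. Null against WT was fitted with 2 groups and the clone comparisons with 3 groups sharing a spread; intervals cover 95%. The fit of null against WT was also run on simulated data that held no difference between the clones. That run does not bear on the clone comparisons or on correlated lines. The p-values treat the libraries of a line as independent. Alternatives were a pseudocount of 0.1, no filter, rescaled libraries, no trend or robust moderation, correlated lines, the mean of the clones, and leaving out each library.

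The members and the 11 gene lists were chosen with earlier results of these data known. Named are all members, Lhx5, tested genes within 250 kb of the Ifitm1 start, the 3 highest of each list and up to 4 past the threshold between the clones, and the 5 genes most like Ifitm1 in levels and in deviations; genes named beyond these, such as Psmb9 or Isg15, were picked after their values were seen. Gene positions came from GENCODE M21, and start windows from RefSeq GRCm38.p6.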

Additional observations from a re-analysis of the deposited data

Results flagged for a closer look

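Among the tested genes named by rule, 44 differed between the 2 clones in their response, by limma's contrast of clone 2 minus clone 1 on the log2 scale. Some list genes were named because they passed this contrast, so their number is no share to set beside that of all genes. In the family these were Ifitm2 at -0.51 and Ifitm3 at 0.30, which differ in sign. Around Ifitm1 they were Urah at -1.51, Lmntd2 at -0.49, Psmd13 at 0.21, Gm15542 at 0.32, B4galnt4 at 0.31, Ptdss2 at 0.25 and Lrrc56 at 0.31. Among interferon-stimulated genes they were Bst2 at -1.80, Tap1 at -1.49, Trim25 at -1.06 and Stat2 at -0.76. In interferon receptor and JAK-STAT signalling they were Ptpn2 at 0.18, Ifnar1 at 0.25, Il6st at 0.56, Jak2 at 0.62, Socs3 at 0.62 and Lifr at 0.46. Among proteins that act on IFITM proteins they were Vcp at 0.21, Zmpste24 at 0.39, Cd81 at -0.37 and Cd9 at -0.48.

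Among cell type markers, the pluripotency genes Pou5f1 (-1.93), Nanog (-1.59), Dppa5a (-1.28) and Dppa4 (-1.01) were lower in clone 2 than in clone 1. The neural progenitor genes Fabp7 (2.98), Cdh2 (0.97), Sox1 (0.86), Nes (0.83) and Msi1 (0.27) were higher and Otx2 (-0.34) was lower. Pax6 and Six3, which the rule did not name, were also called lower in clone 2. By left-out library, Pax6 ran from -1.41 to -0.77 and Six3 from -1.78 to -0.77, and the Six3 call was lost in several alternatives. The germ cell genes Kit (0.42) and Alpl (0.41) were higher and Dnd1 (-1.01) was lower. Twist1 differed by -0.80, Thy1 by -2.11, Pdgfra by 0.87 and Pdgfrb by -0.53. Of the genes most like Ifitm1 in deviations, Chek2 differed by -0.33, Tomm34 by -0.41, Stmn3 by -0.31 and Vasp by -0.32.

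A WT library far from the other WT libraries was found in 4 of 78 genes examined, where chance alone gives about 1 in 20, and no Ifitm gene was among them. The far library was at 7.14 FPKM for Bet1l (others 8.30 to 8.50), 9.28 FPKM for Athl1 (others 8.50 to 8.59), 21.2 FPKM for Ptdss2 (others 24.8 to 25.5) and 1.59 FPKM for Pdgfrb (others 1.22 to 1.28).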

How the results depend on the processing

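The count of genes called over both clones against WT was 8, and became 5 with rescaled libraries, 3 with correlated lines (correlation 0.656), 106 with the mean of the clones in the fit of 3 groups, and 3 to 8 when each library was left out. Clone 1 against WT gave 2266 calls, 1506 with no filter, and 438 to 3091 when each library was left out, with the lowest without clone 1 replicate 2. Clone 2 against WT gave 2036 calls, 1160 with no filter, and 172 to 2425 by left-out library, with the lowest without clone 2 replicate 2. Clone 2 against clone 1 gave 5794 calls and 3099 to 5904 by left-out library. The cause of these moves was not tested. Of 162 alternative values of tested Ifitm differences, which leave out Ifitm1 against WT, 150 kept their direction and side of the threshold, 7 lost the call (all of Ifitm3) and 5 turned in sign, none of them a called value. Ifitm2 in clone 1 against WT was 0.0332 with rescaled libraries and -0.0393 to 0.0349 by left-out library, positive without WT replicate 2. Ifitm3 in clone 2 against WT ran from -0.0665 to 0.0043, positive without clone 2 replicate 1, and Ifitm5 over both clones ran from -0.1899 to 0.0438, positive without clone 2 replicate 2 or WT replicate 2 (0.0152). Of 1104 alternative values of other called genes, 908 stayed called and 196 did not. Where a library was left out of a clone, the lone library was assumed to vary like the other groups. No paired analysis was possible because the clone columns are numbered within a clone and match no number of a sample title. Depth per library is unknown, and few reads limit Ifitm5 and Ifitm7.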
